A study of Mus musculus with 6 samples.

Results

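Calcium release and reuptake in skeletal muscle was followed through 10 genes, taken by symbol from the 48795 genes of the count table, each symbol matching 1 identifier. They were Cacna1s and Ryr1 for release, Stim1 for refilling from outside the cell, Atp2a1 and Atp2a2 for the pump, Sln and Pln for its inhibitors, and Casq1, Casq2 and Pvalb for buffering. The RNA came from quadriceps of male C57BL/6 mice aged 20 weeks, in 2 groups of 3 libraries. MERKO animals carried a muscle-specific loss of ERα, the estrogen receptor encoded by Esr1, and control animals were wild type. The promoter that drives the muscle-specific deletion is not given in the sources used here, nor whether a library stands for 1 animal. The p-values below therefore measure the spread between these libraries.

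In a muscle fibre, an action potential moves the voltage sensor of the transverse tubule, which opens the ryanodine receptor in the facing sarcoplasmic reticulum and lets stored calcium flow to the sarcomere. A calcium pump of the reticulum, SERCA, then drives the ion back, calsequestrin holds it inside the store, and in fast fibres the soluble protein parvalbumin binds it in the cytosol. Several of these parts exist in a fast and a slow form. Fast fibres use the pump SERCA1 and mainly calsequestrin 1, whereas slow fibres use SERCA2 and also hold calsequestrin 2, the form of the heart. Phospholamban, encoded by Pln, and sarcolipin, encoded by Sln, are small membrane proteins that inhibit the pump.

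The libraries held between 14935532 and 44282448 counts. Values are given as CPM, which are counts scaled to the size of the library with TMM factors. Esr1 averaged 7.88 ± 1.39 CPM in the MERKO group against 30.1 ± 4.59 CPM in the control group (SD, n = 3 each), with no overlap. The share of counts on an rRNA gene model ranged from 6.19% to 32.4% in MERKO and from 0.0433% to 27.7% in control. Libraries stood apart within both groups. The summed level of 6 slow-fibre markers was 384 CPM in MERKO 1 against 4.97 and 10.9 CPM in MERKO 2 and 3, and it was 417 CPM in control 1 against 13.3 and 19.4 CPM in control 2 and 3. The 6 fast-fibre markers summed to between 74488 and 118320 CPM in MERKO and between 94575 and 114640 CPM in control. Heart muscle was near absent by its markers, since 5 of them summed to at most 5.84 CPM (MERKO) and 3.32 CPM (control), and Nppa had 0 counts. Adipocyte markers, 6 in number, summed to between 14.6 and 44.7 CPM in MERKO and between 45.0 and 296 CPM in control. Markers of nerve, also 6, summed to between 35.1 and 54.1 CPM in MERKO and between 25.3 and 33.3 CPM in control. All 6 adipocyte markers were lower in MERKO, each at an unadjusted p under 0.05 (edgeR), with a median log2 fold change of -2.24. All 6 nerve markers were higher, 1 of them at that level, which 7.04% of all genes reached. No gene of these lists passed the test after adjustment, and their part in the results below was not tested.

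None of the 10 members passed the comparison of MERKO with control in the edgeR quasi-likelihood test with Benjamini-Hochberg adjustment over all genes. The test called 0 of 10 members against 0.00734% of the 13628 genes tested, which was Esr1 alone. At an unadjusted p under 0.05 there was 1 member, Sln, where 7.04% of all genes reached that level. In no member did all MERKO libraries lie on 1 side of all control libraries, while 13.3% of all genes showed such separation. DESeq2 and limma-voom also called 0 members. Of the members, 5 had positive and 5 negative log2 fold changes, with a median of 0.015. Over all genes 52.1% were positive, with a median of 0.011. Removing the composition factor moves the log2 fold changes of all genes by a median of -0.12, and the split of the members is then 4 positive and 6 negative.

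**Figure D1:**
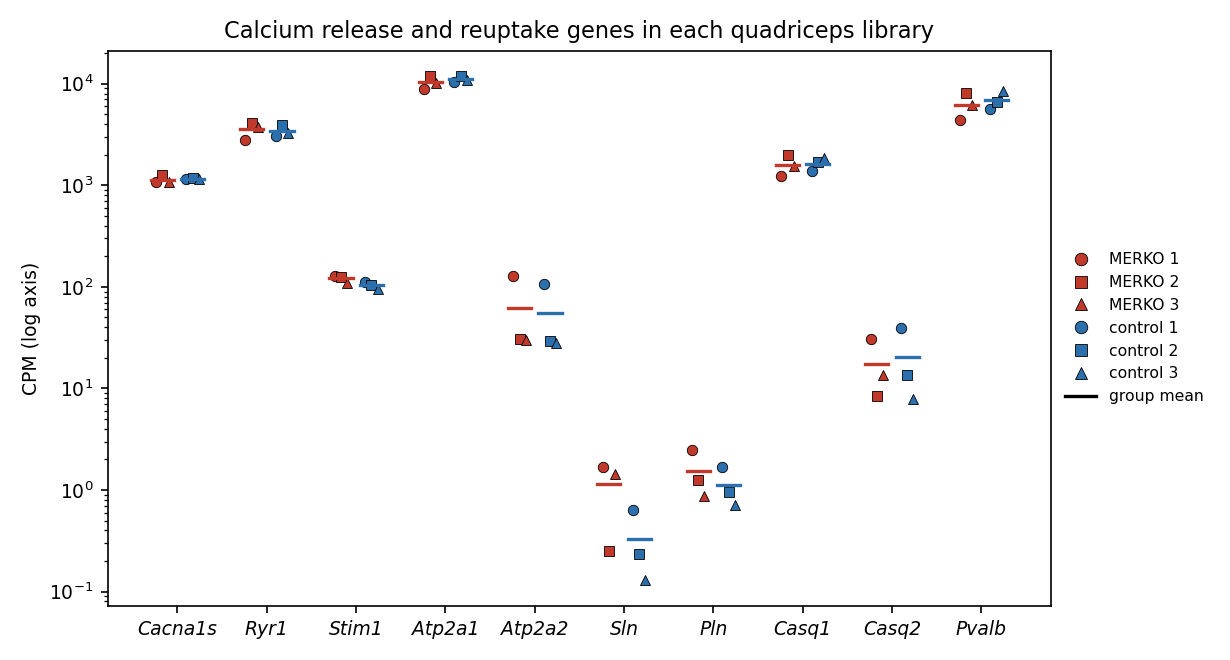
CPM of each member in every library on a log axis, with MERKO in red and control in blue, the marker shape giving the library number and the bar the group mean. The groups overlap in all 10 genes, and Atp2a2 and Casq2 each have 1 high library per group.

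Set in order per kilobase of exon, so that genes of different length can be compared, the fast forms led by a wide margin. Mean levels per kb were 5966 CPM (MERKO) and 6627 CPM (control) for Pvalb, 2972 (MERKO) and 3185 (control) for Atp2a1, and 817 (MERKO) and 838 (control) for Casq1. The length used was that of all annotated exons of a gene merged, for example 21838 bases for Ryr1 and 6550 for Cacna1s. Where a gene is expressed from a shorter transcript, its level per kb is given too low, so the order depends on this length. The voltage sensor and the release channel came next, and this measure did not order them. Cacna1s averaged 173 CPM per kb (MERKO) and 176 (control), Ryr1 163 (MERKO) and 158 (control), and Cacna1s was above Ryr1 in 4 of 6 libraries. Stim1 (MERKO 11.7, control 10.04), Atp2a2 (MERKO 10.3, control 9.03) and Casq2 (MERKO 6.39, control 7.39) followed, again with ranges that crossed. Sln (MERKO 0.860, control 0.252) and Pln (MERKO 0.555, control 0.404) were lowest, with Sln above Pln in 2 of 6 libraries. All other neighbours in this order were apart in all 6 libraries.

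**Figure D2:**
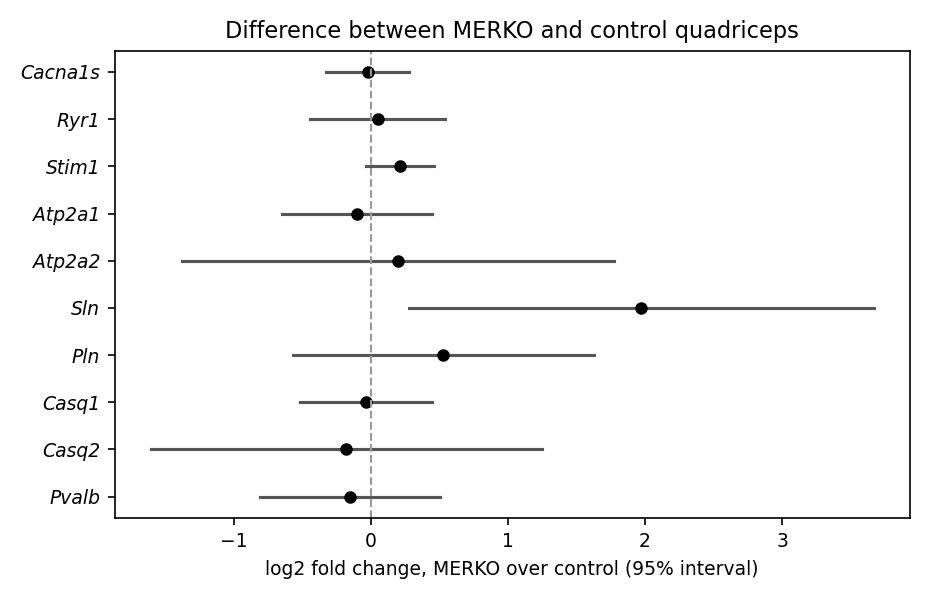
Log2 fold change of MERKO over control for each member as a dot, with its 95% interval as a line and no difference as a dashed line. The intervals are narrow for Cacna1s and Stim1, wide for Atp2a2, Casq2, Pln and Sln, and that of Sln lies above 0 before adjustment.

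Neither gene of the release step passed the test, and Cacna1s varied little between libraries. Cacna1s (GRCm38 chromosome 1, 136052750 to 136119822, plus strand) encodes the pore of the voltage sensor. It had 1070, 1254 and 1084 CPM in MERKO 1 to 3 and 1144, 1172 and 1144 CPM in control 1 to 3. The control libraries lay inside the MERKO range, and the highest control library exceeded the lowest by a factor of 1.02. The log2 fold change was -0.022 (SE 0.13, 95% interval -0.33 to 0.28, adjusted p = 0.977, edgeR), which bounds the MERKO level between 0.798 and 1.22 times control. Its sign turned without MERKO 1 (0.019) or MERKO 3 (0.015).

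Ryr1 (chromosome 7, 29003344 to 29125179, minus strand), the ryanodine receptor of skeletal muscle, had 2771, 4142 and 3791 CPM in MERKO 1 to 3 and 3076, 3952 and 3300 CPM in control 1 to 3. The lowest value of each group belonged to the library with high slow-fibre markers. The log2 fold change was 0.052 (SE 0.21, interval -0.44 to 0.54, adjusted p = 0.965), and it was -0.062 without MERKO 2 and -0.024 without control 1. Exons of Ryr1 overlap 2 predicted genes on the other strand that held at most 57 counts in any library, against at least 49199 counts for Ryr1.

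Stim1 (chromosome 7, 102267806 to 102437319, plus strand) encodes the calcium sensor of the reticulum that opens entry channels when the store runs low. It had 128, 125 and 110 CPM in MERKO 1 to 3 and 113, 105 and 94.7 CPM in control 1 to 3. In 8 of the 9 pairings of a MERKO with a control library the MERKO value was higher, the exception being MERKO 3 with control 1. Means were 121 ± 9.82 CPM (MERKO) and 104 ± 9.03 CPM (control), with SD over 3 libraries each. With a log2 fold change of 0.22 (SE 0.11, interval -0.032 to 0.46) the adjusted p was 0.713 in the edgeR test. Over all alternatives it lay between 0.11 and 0.29 and kept its sign.

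Per kb, the fast pump gene exceeded the slow one in every library. Atp2a1 (chromosome 7, 126445858 to 126463108, minus strand), which encodes SERCA1, had 8933, 11825 and 10243 CPM in MERKO 1 to 3 and 10382, 11925 and 10915 CPM in control 1 to 3. The lowest library of each group was again the one with high slow-fibre markers. The log2 fold change was -0.10 (SE 0.24, interval -0.65 to 0.45, adjusted p = 0.939), between 0.638 and 1.37 times control. Without MERKO 1 the log2 fold change was -0.0054. Its exons overlap Rabep2 on the other strand, which had at most 875 counts where Atp2a1 had at least 140472.

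Atp2a2 (chromosome 5, 122453513 to 122502225, minus strand) encodes SERCA2, the pump of slow fibres, heart and smooth muscle. It had 127, 31.0 and 29.7 CPM in MERKO 1 to 3 and 108, 29.4 and 27.7 CPM in control 1 to 3. One library of each group was high and the other two of each group were nearly level. The highest value exceeded the lowest by a factor of 4.28 within MERKO and of 3.88 within control, whereas the log2 fold change between the groups was 0.20, with an SE of 0.69, an interval of -1.38 to 1.77 and an adjusted p of 0.959 by edgeR. That interval spans 0.385 to 3.41 times control, so at this spread the data do not set the direction or size of a change within these bounds. Leaving out MERKO 1 gave -0.86, leaving out control 2 gave -0.097 and control 3 -0.13, whereas leaving out control 1 gave 1.14. In bulk RNA, fewer slow fibres and less of the transcript per slow fibre cannot be told apart.

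Myh7, the slow myosin heavy chain, had 160, 1.77 and 2.12 CPM in MERKO 1 to 3 and 185, 6.00 and 8.07 CPM in control 1 to 3. Tnnc1, the slow and cardiac troponin C, reached 20.6 CPM (MERKO 1) and 25.4 CPM (control 1), with at most 1.53 CPM elsewhere. Both were high in the same 2 libraries as Atp2a2, by far larger factors, and Atp2a2 kept at least 27.7 CPM where Myh7 was nearly gone. These 2 libraries were also the highest for Myh1, a fast-fibre marker, at 10132 CPM (MERKO 1) and 6083 CPM (control 1). Myh1 had 2307 and 3526 CPM in MERKO 2 and 3 and 2021 and 701 CPM in control 2 and 3. Myh4, another fast-fibre marker, was lowest of its group in both, at 39867 CPM (MERKO 1) and 55646 CPM (control 1). Smooth muscle markers, 6 in number, summed to 114, 86.1 and 92.8 CPM in MERKO 1 to 3 and 98.6, 101 and 69.9 CPM in control 1 to 3, and endothelial markers, 4 in number, to between 109 and 164 CPM in MERKO and between 96.7 and 147 CPM in control. Their part in the Atp2a2 counts was not tested.

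The calsequestrins repeated this division. Casq1 (chromosome 1, 172209894 to 172219868, minus strand) had 1234, 2001 and 1549 CPM in MERKO 1 to 3 and 1383, 1685 and 1838 CPM in control 1 to 3, with a log2 fold change of -0.036 (SE 0.21, interval -0.52 to 0.45, adjusted p = 0.976). Without MERKO 1 it was 0.12 and without control 3 it was 0.056. Casq2 (chromosome 3, 102086415 to 102146514, plus strand) had 30.6, 8.33 and 13.4 CPM in MERKO 1 to 3 and 39.2, 13.7 and 7.81 CPM in control 1 to 3. The same libraries as for Atp2a2 were high, but the remaining 4 were not level, and the order of libraries 2 and 3 was opposite in the 2 groups. The log2 fold change of Casq2 was -0.18 (SE 0.62, interval -1.60 to 1.25, adjusted p = 0.960), and it was 0.14 without MERKO 2, 0.77 without control 1 and -0.87 without MERKO 1.

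The windows upstream of the start of both calsequestrin genes are shown because the genes encode fast and slow forms of 1 protein and had opposite patterns over the libraries. Each runs from 250 bases before to 50 bases after the annotated start, in GRCm38.p6 from RefSeq, read on the strand of the gene. Capitals mark E-boxes (CANNTG, the motif bound by myogenic factors such as MyoD) and matches to the MEF2 site, both searched on both strands. Casq1 lies on the minus strand at chr1:172219846-172220145 and Casq2 on the plus strand at chr3:102086165-102086464.
Casq1: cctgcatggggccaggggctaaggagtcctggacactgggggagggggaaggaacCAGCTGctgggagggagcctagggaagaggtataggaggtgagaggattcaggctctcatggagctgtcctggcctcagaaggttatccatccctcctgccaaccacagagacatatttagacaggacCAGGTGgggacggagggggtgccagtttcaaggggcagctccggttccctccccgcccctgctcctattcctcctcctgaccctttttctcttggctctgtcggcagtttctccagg
Casq2: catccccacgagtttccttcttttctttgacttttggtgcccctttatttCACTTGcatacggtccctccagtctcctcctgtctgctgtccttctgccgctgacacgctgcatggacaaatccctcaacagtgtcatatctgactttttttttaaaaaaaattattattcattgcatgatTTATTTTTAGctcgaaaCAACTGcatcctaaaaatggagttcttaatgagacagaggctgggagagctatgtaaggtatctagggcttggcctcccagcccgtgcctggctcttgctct

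Both windows held 2 E-boxes, a motif present in 72.3% of the 32851 promoter windows of the table. In the Casq2 window a MEF2 match lay 69 bases before the start, near an E-box at 52 bases before it. The Casq1 window held no MEF2 match. Such a match was found in 3.19% of all windows. The Casq2 window was poorer in G and C, at 44.7% against 60.3% in the Casq1 window, with a median of 52.7% over all windows.

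The pump inhibitors had the lowest levels per kb among the members. Both were highest in MERKO 1 and lowest in control 3, but MERKO 3 was high for Sln (1.44 CPM) and not for Pln (0.866 CPM). Sln (chromosome 9, 53850164 to 53854560, plus strand) had 56, 3 and 30 counts in MERKO 1 to 3 and 15, 3 and 7 counts in control 1 to 3. These were 1.70, 0.253 and 1.44 CPM in MERKO 1 to 3 and 0.630, 0.237 and 0.129 CPM in control 1 to 3. MERKO 1 and MERKO 3 lay above every control library, and MERKO 2 lay between control 1 and control 2. The log2 fold change of 1.97 (SE 0.74, interval 0.28 to 3.67) was the largest among the members, but at an unadjusted p of 0.0274 the adjusted p was 0.683 in the edgeR test, so Sln did not pass. The fold change stayed positive in the 15 alternatives that tested it, between 1.37 without control 3 and 2.95 without control 1. Sln met the filter on low counts through MERKO 1, MERKO 3 and control 1, so its place in the test rests on those libraries.

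The order of the libraries by Sln was close to their order by Myh2, the myosin heavy chain of fast oxidative fibres, and not to that by Myh7. Myh2 had 3050, 164 and 722 CPM in MERKO 1 to 3 and 1514, 56.7 and 38.3 CPM in control 1 to 3. MERKO 3, which was high for Sln, was low for Myh7 at 2.12 CPM and for Atp2a2 at 29.7 CPM. This describes 6 libraries in which Sln had between 3 and 56 counts, and the part of fibre make-up in its level was not tested.

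Pln (chromosome 10, 53337667 to 53345987, plus strand) had 81, 15 and 18 counts in MERKO 1 to 3 and 40, 12 and 39 counts in control 1 to 3, or 2.46, 1.26 and 0.866 CPM in MERKO and 1.68, 0.947 and 0.717 CPM in control. The highest library of each group was the one with high slow-fibre markers, and the groups overlapped. The log2 fold change was 0.53 (SE 0.48, interval -0.57 to 1.62, adjusted p = 0.820), and without MERKO 1 it was -0.077. Exons of Pln overlap Cep85l on the other strand, which had between 781 and 3907 counts. The strand setting of the counting is not given, so reads of both genes cannot be told apart there and the level of Pln is uncertain. Its promoter window (GRCm38.p6, chr10:53337436-53337735, plus strand) is shown as that of a pump inhibitor whose level was highest in MERKO 1 and control 1, with capitals as before.
Pln: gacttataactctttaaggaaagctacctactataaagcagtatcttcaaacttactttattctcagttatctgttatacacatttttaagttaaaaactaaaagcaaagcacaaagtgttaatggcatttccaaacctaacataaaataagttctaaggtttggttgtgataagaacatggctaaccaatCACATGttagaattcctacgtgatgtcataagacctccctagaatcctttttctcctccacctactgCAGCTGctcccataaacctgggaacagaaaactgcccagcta

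It held 2 E-boxes and no MEF2 match, and its share of G and C was 36.0%, the lowest of the 9 windows found for 8 members. Atp2a2 and Sln had no window. The full estrogen response element (GGTCANNNTGACC), to which ERα binds, was in none of the 9 windows and in 0.0700% of all windows. Its short form GGTCA, 1 arm of the full element, searched on both strands as well, was in 4 of the 9 and in 40.5% of all, with 3 matches in the Atp2a1 window. Such matches describe letters only.

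Pvalb (chromosome 15, 78191114 to 78206400, minus strand), which encodes parvalbumin, had 4396, 8097 and 6138 CPM in MERKO 1 to 3 and 5696, 6558 and 8442 CPM in control 1 to 3. MERKO 1 and control 1 were the lowest of their groups, the reverse of the slow isoforms. Means were 6211 ± 1852 CPM (MERKO) and 6899 ± 1404 CPM (control), SD over 3 libraries each, with a log2 fold change of -0.15 (SE 0.29, interval -0.81 to 0.50, adjusted p = 0.917). It was 0.045 without MERKO 1 and 0.019 without control 3. The spread within MERKO, a factor of 1.84 between the highest and lowest library, was wider than that of Atp2a1 (1.32) and Casq1 (1.62). The upstream one of its 2 windows (GRCm38.p6, chr15:78206351-78206650, minus strand) is shown because it held the other MEF2 match among the members, 180 bases before the start and in capitals, with no E-box.
Pvalb: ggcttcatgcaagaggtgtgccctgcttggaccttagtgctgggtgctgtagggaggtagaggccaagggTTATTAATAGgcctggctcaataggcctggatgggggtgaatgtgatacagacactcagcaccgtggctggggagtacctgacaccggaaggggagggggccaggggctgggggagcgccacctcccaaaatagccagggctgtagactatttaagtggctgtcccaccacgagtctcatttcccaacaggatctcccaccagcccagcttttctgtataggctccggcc

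A MEF2 match occurred in the window of a gene of fast fibres that was low in MERKO 1 and control 1 and in that of Casq2, which was high there.

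**Figure D3:**
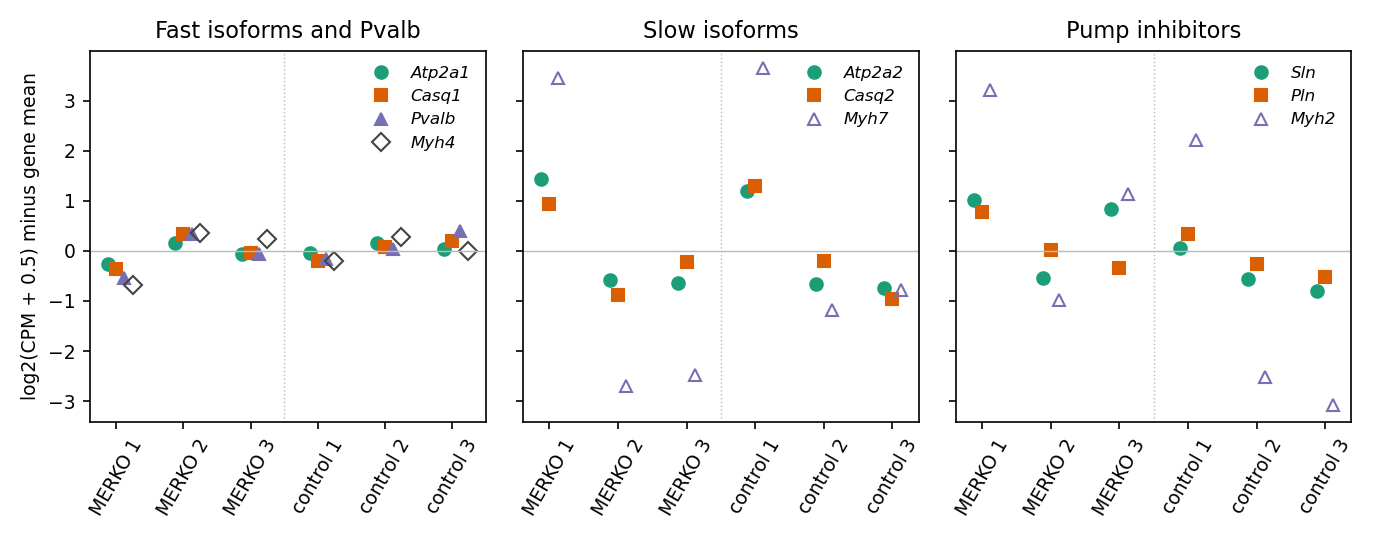
Each gene's log2(CPM + 0.5) relative to its mean over the 6 libraries, with filled symbols for members and open symbols for myosin heavy chains, MERKO to the left of the dotted line. MERKO 1 and control 1 are high for Atp2a2, Casq2 and Myh7 and low for Casq1 and Pvalb, and MERKO 3 is high for Sln and Myh2 but not for Pln. The added 0.5 narrows the range of Sln and Pln.

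Slow and fast forms were then compared within each library, which removes the effect of scaling. Per kilobase, Atp2a2 made up 0.806%, 0.150% and 0.166% of the sum of both pumps in MERKO 1 to 3, against 0.589%, 0.141% and 0.145% in control 1 to 3. Casq2 made up 1.74%, 0.298% and 0.615% of both calsequestrins in MERKO 1 to 3, against 1.98%, 0.576% and 0.303% in control 1 to 3. The fast form thus exceeded the slow one by a factor of at least 123 for the pumps and 49.5 for the calsequestrins, and the libraries differed among themselves far more than the groups.

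The log2 ratio of Atp2a2 to Atp2a1 counts averaged -7.71 ± 1.37 in MERKO and -7.96 ± 1.18 in control (SD, n = 3 each), a difference of 0.25 (exact two-sided permutation p = 0.5). It was -0.54 without MERKO 1, -0.11 without control 2 and -0.087 without control 3. For Casq2 to Casq1 the means were -6.69 ± 1.29 in MERKO and -6.65 ± 1.39 in control, a difference of -0.039 (exact permutation p = 0.9), which was 0.56 without MERKO 2, 0.038 without MERKO 3 and 0.72 without control 1. For Pln to Sln they were 0.65 ± 1.44 in MERKO and 1.87 ± 0.51 in control, a difference of -1.22 (exact permutation p = 0.3), which rests on Sln counts as low as 3. That difference was -0.54 without MERKO 3 and -1.97 without MERKO 2. After adjustment over the 3 ratios the p-values were 0.75, 0.9 and 0.75 for the exact tests. With 3 against 3 libraries no p below 0.1 is possible.

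**Figure D4:**
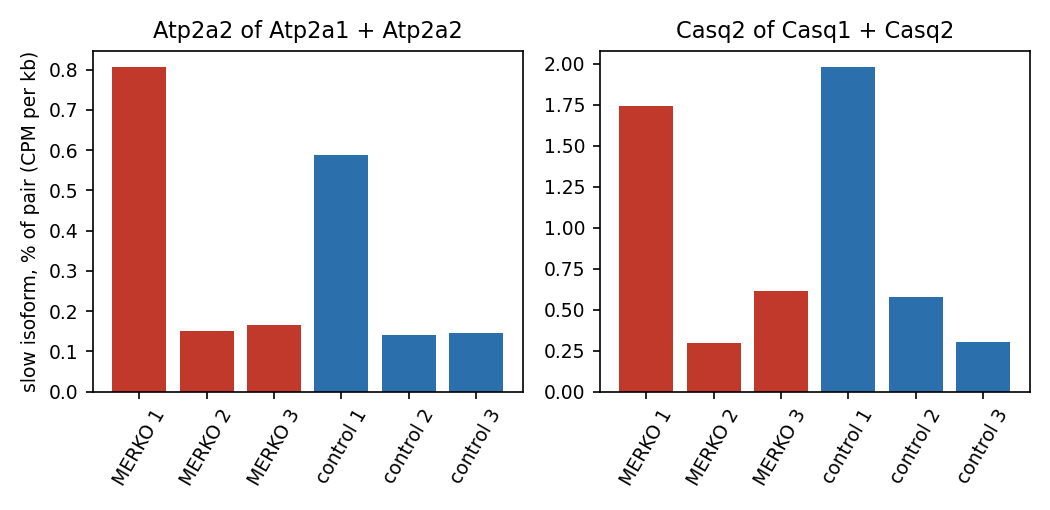
Share of the slow isoform in its pair, in percent of CPM per kb, as a bar for each library, MERKO in red and control in blue, on separate axes from 0. MERKO 1 and control 1 reach 0.806% and 0.589% for Atp2a2 and 1.74% and 1.98% for Casq2, above the other 4 libraries.

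Among 6277 genes with a mean of at least 10 CPM, those most like each member were sought by the root mean square difference of log2(CPM + 0.5) over the 6 libraries, after each gene was centred on its mean. Nearest to Atp2a2 was Tpm3, the slow tropomyosin gene (0.14), with 57.7, 15.5 and 17.1 CPM in MERKO 1 to 3 and 58.4, 15.2 and 17.1 CPM in control 1 to 3. Ppara, a nuclear receptor that drives fatty acid oxidation (0.24), and Idh2, a mitochondrial isocitrate dehydrogenase (0.26), came next. Ppara was also nearest to Casq2 (0.17), followed by Apol6 (0.21) and the aspartate aminotransferase gene Got1 (0.28). Pln was nearest to As3mt (0.11), Dusp26 (0.13) and Klhl23 (0.14). For Pvalb the nearest were Rab40b (0.062), Acsl3 (0.066) and Exoc7 (0.074). The nearest to Sln were farther off, namely Pgm5 (0.33), Pdk4, a kinase that restrains pyruvate oxidation (0.34), and Xirp1 (0.34). Sln and Pln reached at most 1.70 and 2.46 CPM, so the added 0.5 narrowed their ranges but hardly those of the genes compared. Their nearest genes are thus uncertain, as their counts ran as low as 3 (Sln) and 12 (Pln).

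The wider calcium system was read from 6 lists that held 84 further genes, of which 72 were tested. None passed the threshold, 38 had positive and 34 negative fold changes, and their median log2 fold change was 0.022. An unadjusted p under 0.05 was found for 5, or 6.94%, near the 7.04% of all genes. The groups did not overlap in 11, or 15.3%, where all genes gave 13.3%. DESeq2 and limma-voom called 0 of them.

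Counts and medians of each list include the members it holds, and the levels below are means with SD over 3 libraries per group. Of all genes tested, 52.1% were higher in MERKO. The list of the triad, the junction of tubule and reticulum, had 27 tested genes, 13 higher and 14 lower, with none called (median -0.0063). Its most abundant genes outside the members were Trdn, triadin, which links calsequestrin to the release channel (MERKO 939 ± 157, control 1121 ± 208 CPM, interval of the log2 fold change -0.69 to 0.18), and Tmem38a, a potassium channel of the reticulum (MERKO 859 ± 70.2, control 949 ± 50.9 CPM, interval -0.44 to 0.15). Among 13 genes of the pump and its regulators, 8 were higher and 5 lower (median 0.14), led by the calmodulin kinase genes Camk2g (MERKO 153 ± 15.5, control 158 ± 3.56 CPM) and Camk2a (MERKO 93.8 ± 29.3, control 105 ± 15.1 CPM). The 13 buffer genes had 8 higher and 5 lower (median 0.043), with Srl, sarcalumenin (MERKO 1513 ± 88.6, control 1439 ± 40.9 CPM), and Hrc, a histidine-rich protein of the reticulum (MERKO 296 ± 27.8, control 294 ± 20.9 CPM), as the leading ones.

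Store-operated entry had 7 of 11 genes higher and 4 lower (median 0.076). Its leading genes were Saraf, an inhibitor of that entry (MERKO 126 ± 11.3, control 129 ± 9.58 CPM), and the septin gene Sept7 (MERKO 78.7 ± 3.07, control 84.2 ± 3.24 CPM). Extrusion across the plasma membrane had 2 of 7 higher and 5 lower (median -0.043), led by Bsg, basigin, a membrane glycoprotein (MERKO 253 ± 33.6, control 261 ± 24.9 CPM), and the pump gene Atp2b1 (MERKO 78.4 ± 3.32, control 79.1 ± 4.79 CPM). Mitochondrial calcium transport had 5 of 11 higher and 6 lower (median -0.025), led by Vdac1, a channel of the outer membrane (MERKO 776 ± 60.7, control 748 ± 58.6 CPM), and Ghitm of the inner membrane (MERKO 221 ± 21.7, control 231 ± 19.6 CPM). No gene named from these lists passed the edgeR test.

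The 5 genes at an unadjusted p under 0.05 were named after their values were seen, and their adjusted p-values by edgeR lay between 0.654 and 0.683. Mrln encodes myoregulin, another small inhibitor of the pump in skeletal muscle. It had 13.5, 20.4 and 20.1 CPM in MERKO 1 to 3 and 25.2, 25.2 and 29.1 CPM in control 1 to 3, without overlap (log2 fold change -0.57, SE 0.16, interval -0.95 to -0.19, adjusted p = 0.654). Per kb its mean level was 15.2 CPM (MERKO) and 22.4 CPM (control), above those of Sln and Pln. Slc8a1, the sodium-calcium exchanger of the plasma membrane, had 15.4, 18.3 and 20.4 CPM in MERKO 1 to 3 and 23.7, 22.6 and 25.8 CPM in control 1 to 3, also without overlap (-0.42, interval -0.70 to -0.14). Mtm1, myotubularin, a lipid phosphatase needed for the triad, averaged 15.1 ± 1.31 CPM (MERKO) and 18.5 ± 1.07 CPM (control), with a log2 fold change of -0.29. Itpr3, a calcium channel gated by inositol trisphosphate, averaged 6.67 ± 0.902 CPM (MERKO) and 5.07 ± 0.744 CPM (control), with a log2 fold change of 0.43. Thbs4, a matrix protein also on the list of tendon markers, had 152, 83.3 and 44.5 CPM in MERKO 1 to 3 and 48.4, 15.6 and 33.1 CPM in control 1 to 3. Its log2 fold change was 1.52, it was 0.96 without MERKO 1, and Thbs4 passed the test only without a composition factor (adjusted p = 0.00196) or without the filter on low counts, among the alternatives run. The 6 tendon markers, Thbs4 among them, summed to 385, 195 and 80.5 CPM in MERKO 1 to 3 and 81.5, 29.5 and 69.6 CPM in control 1 to 3. Of these markers 5 were higher and 1 lower in MERKO, and 4 had an unadjusted p under 0.05 (edgeR), with none called.

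**Figure D5:**
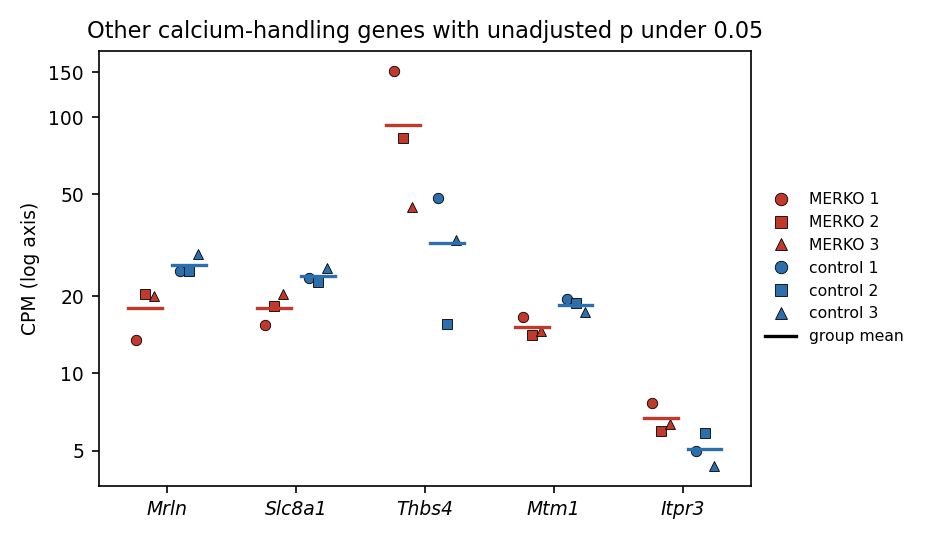
CPM on a log axis for the 5 further calcium-handling genes at an unadjusted p under 0.05, MERKO in red and control in blue, with the library number as marker shape and the group mean as a bar. Mrln, Slc8a1, Mtm1 and Itpr3 have groups that do not overlap, as have 13.3% of all genes tested. The genes were chosen by p-value in these same libraries, so the separation is no further result. The MERKO libraries of Thbs4 spread from 44.5 to 152 CPM.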

How the data were processed

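The authors deposited raw read counts per gene for 6 quadriceps libraries, 1 column each, named by versioned Ensembl identifier. The submitters' processing notes list the tools STAR 2.5.2b, DESeq and HTSeq 0.9.1, and as builds GRCm38 and mm10. Not given in the sources used here are what each tool did, the gene annotation, whether counting used strand, and how reads placed more than once were handled. Libraries were made with the TruSeq RNA kit, per the labels' protocols. Symbols were matched to 48349 of 48795 identifiers. Coordinates and exon lengths come from GENCODE M21 on GRCm38, with the exons of all transcripts of a gene merged.

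For the comparison of genotypes, a quasi-likelihood model was fitted in edgeR 4.0.16 (R 4.3.3) on genes that passed filterByExpr, scaled by TMM. It held no term beside genotype. CPM values use the library sizes of that fit. The Benjamini-Hochberg adjustment ran over 13628 genes, and an adjusted p under 0.05 counted as called. Intervals are 95% intervals from the standard error and the total degrees of freedom of the fit, residual plus prior. The standard error was derived from the log2 fold change and the F statistic of the test. Ratios of isoforms used counts plus 0.5 and exact permutation tests over the libraries. The code was tested on simulated data. Alternatives were RLE scaling, no composition factor, no filter, at least 1 CPM in at least 3 libraries, DESeq2 1.42.0, limma-voom (limma 3.58.1), replicate number as a block, a robust prior, removal of the rRNA gene model and mitochondrial DNA genes, and leaving out libraries singly or in pairs.

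Beside the members, genes were named as the 2 most abundant tested genes of each list, the 3 nearest genes by profile for 5 members, and fibre type genes. Slc8a3 was added beside Slc8a1 after the values were seen. The members and lists were chosen with earlier results of these data known. Of the listed symbols, Arln and Erln were matched to no identifier, while Stimate and Tmbim5 were counted under an older symbol.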

Additional observations from a re-analysis of the deposited data

How the results depend on the processing

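No alternative called a member. Directions changed in 7 members, with ranges on leaving out 1 library of -0.062 to 0.20 for Ryr1, -0.092 to 0.019 for Cacna1s, -0.86 to 1.14 for Atp2a2, -0.23 to 0.12 for Casq1, -0.87 to 0.77 for Casq2, -0.077 to 0.98 for Pln and -0.38 to 0.045 for Pvalb. Sln, Stim1 and Atp2a1 kept their sign wherever they were tested, though for Atp2a1 the range on leaving out 1 library was -0.20 to -0.0054. Sln was not tested with at least 1 CPM in at least 3 libraries or without MERKO 1 and control 1 together, and Pln not with that 1 CPM filter. Without MERKO 1 and control 1 together, the fold change was 0.015 for Cacna1s, 0.012 for Casq1 and 0.11 for Casq2. It was 0.14 for Casq2 with limma-voom. Without a composition factor it was -0.092 for Ryr1, while the fold changes of all genes moved by a median of -0.12. The cause of the other changes was not tested.

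The difference in the ratio of Atp2a2 to Atp2a1 lay between -0.54 and 0.93 on leaving out 1 library, and that of Casq2 to Casq1 between -0.72 and 0.72. That of Pln to Sln lay between -1.97 and -0.54. For Casq2 to Casq1 it was 0.036 without MERKO 1 and control 1 together and 0.42 without MERKO 2 and control 2 together.

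Over all genes, 1 was called. The count was 93 without a composition factor, 140 without a filter, 21 with DESeq2, 7 without MERKO 1 and control 1 together and between 0 and 11 on leaving out 1 library. Of the wider calcium genes, 1 was called without a composition factor and 1 without a filter, in both cases Thbs4. With the replicate block 51 genes were called, none of them a calcium gene. Deviations of same-numbered libraries from their group means correlated across genes at 0.45, 0.16 and 0.061, and MERKO 2 correlated more with control 3 (0.18) than with control 2, so the numbers were not taken to pair the samples. Depth limits Sln and Pln, with as few as 3 and 12 counts in a library.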
